A study of Mus musculus with 24 samples.

Results

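Mitochondrial complex I, the NADH:ubiquinone oxidoreductase of the respiratory chain, is built from subunits and assembly factors whose nuclear genes mostly carry symbols that start with Nduf. All genes with such a symbol were taken, and 47 of the 24346 gene features in the count files met the rule. The 47 comprised 36 core and accessory subunits, 8 assembly factors, Ndufa4, its paralog Ndufa4l2, and Ndufs5-ps, a pseudogene copy of Ndufs5. All 47 passed the filter on low counts and were among the 13356 genes tested, so no member was lost to the filter. RNA-seq had been run on 3T3-L1, an established line of mouse preadipocytes that a hormone mixture turns into fat cells, in 12 libraries of 4 groups with 3 biological replicates each. The groups were control cells and cells with the genotype label LSD1 overexpression, both at day 0 (confluent, undifferentiated) and at day 7. Between those days all cells received insulin at 10 µg/ml, dexamethasone at 1 µM, rosiglitazone at 10 µM and isobutylmethylxanthine at 500 µM, and from day 3 insulin alone. Cells of passages 13 to 18 were used throughout, and the labels do not say how LSD1 was overexpressed or whether the replicates stem from separately derived lines. The p-values therefore measure the spread between these samples only. 6 chromatin immunoprecipitation (ChIP-seq) peak lists, each from 1 sample, covered LSD1 in control and in LSD1-labelled cells at both days, and Nrf1 at both days. For Nrf1 at day 7 the sample title gives LSD1 cells and the genotype field gives control, so both Nrf1 lists were grouped by factor and day alone.

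Complex I passes electrons from NADH to ubiquinone and pumps protons across the inner mitochondrial membrane. Its hydrophilic matrix arm holds the module that oxidises NADH and the module that reduces ubiquinone. Its membrane arm holds the proton pumps, whose core subunits are encoded by the mitochondrial genome and are not Nduf genes. Accessory subunits surround this core, and assembly factors help to build the complex without staying in it. Fat cells gain mitochondria as they differentiate, and nuclear respiratory factor 1 (Nrf1) is a transcription factor known to bind promoters of many nuclear genes for mitochondrial proteins.

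Kdm1a, which encodes LSD1, had 89.4, 104 and 99.0 CPM (the count scaled to a common library size) in the LSD1-labelled libraries at day 0 against 79.0, 86.3 and 84.1 in control, a log2 difference of 0.23 ± 0.10 (SE) with an edgeR adjusted p of 0.0969. At day 7 it was lower in the labelled libraries by this fit (log2 -0.34 ± 0.10, adjusted p = 0.00751), and the cells are called LSD1-labelled here. Without the day 0 library that stood apart (described next), Kdm1a was higher in LSD1-labelled cells at day 0 (0.29, adjusted p = 0.0132). It also passed with scaling by library totals (0.39, adjusted p = 0.0151), which shifted the median of all genes at day 0 by 0.15. Total counts per library were 27512273 to 37565527. 1 library stood apart: replicate 1 of the LSD1-labelled group at day 0 had a mean correlation of 0.96 with its 2 partners, where the partners had 0.977 and 0.978 and the other 9 libraries 0.993 to 0.996. Adipocyte marker transcripts (10 genes, such as Adipoq, Plin1 and Fabp4) summed to 496 to 847 CPM in the 6 day 0 libraries, 10400 to 12100 in control at day 7 and 29600 to 36100 in LSD1-labelled cells at day 7, with Lep at 0 counts in all groups but control at day 7. The 8 preadipocyte and fibroblast markers summed to 12400 to 13300 CPM in control and 1590 to 1700 in LSD1-labelled cells at day 7. At day 0 the preadipocyte and fibroblast markers summed to 44000 to 47400 CPM in control and 20000 to 26800 in LSD1-labelled cells, with 7 of 8 lower in the latter, and 4 of the 9 adipocyte markers tested were lower too. Over differentiation and between the labels at day 7 the sums differed along with the Nduf results below, whereas at day 0 the Nduf median differed by 0.07, and their part in the results was not tested. In bulk RNA, a larger share of differentiated cells and more RNA per cell cannot be told apart. Macrophage and endothelial markers were low, with sums of at most 5.32 and 1.92 CPM in any library. The muscle list differed between the groups. It summed to 4.16 to 5.59 CPM in control at day 0 and 12.7 to 15.6 at day 7. In LSD1-labelled cells it summed to 6.83 to 17.6 and 33.5 to 44.1 CPM. Both muscle genes tested were higher in LSD1-labelled cells at day 7, and Myod1 and Myog had 0 counts in every group.

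Across differentiation of control cells, 25 of the 47 Nduf genes rose, 2 fell and 20 did not pass the test (edgeR quasi-likelihood test, adjusted p below 0.05 over all 13356 genes). Over all genes tested, 23.7% rose and 24.6% fell in this comparison. The members' median log2 difference was 0.59, where that of all genes was -0.01. In LSD1-labelled cells 45 of 47 rose and none fell between day 0 and day 7, with 2 not passing, Ndufaf5 and Ndufa4l2, against 32.6% higher and 37.2% lower of all genes. The members' median there was 1.79, and that of all genes -0.07. At day 0 the labels differed in 1 member only by this test, Ndufa4l2, which was lower in LSD1-labelled cells, while 12.8% of all genes were higher and 13% lower. At day 7, 44 of 47 members were higher in LSD1-labelled than in control cells and none was lower, against 30.2% and 33.4% of all genes. The difference between the differentiation changes of the 2 labels (the interaction) was above 0 for 38 members and below 0 for none, against 23.9% and 28.1% of all genes. These comparisons use the same 4 groups and share samples, so they are not independent of each other. Of the 47, 25 members rose in both labels, 18 did not pass in control and rose in LSD1-labelled cells, 2 fell in control and rose in LSD1-labelled cells, and 2 passed in neither.

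**Figure D1:**
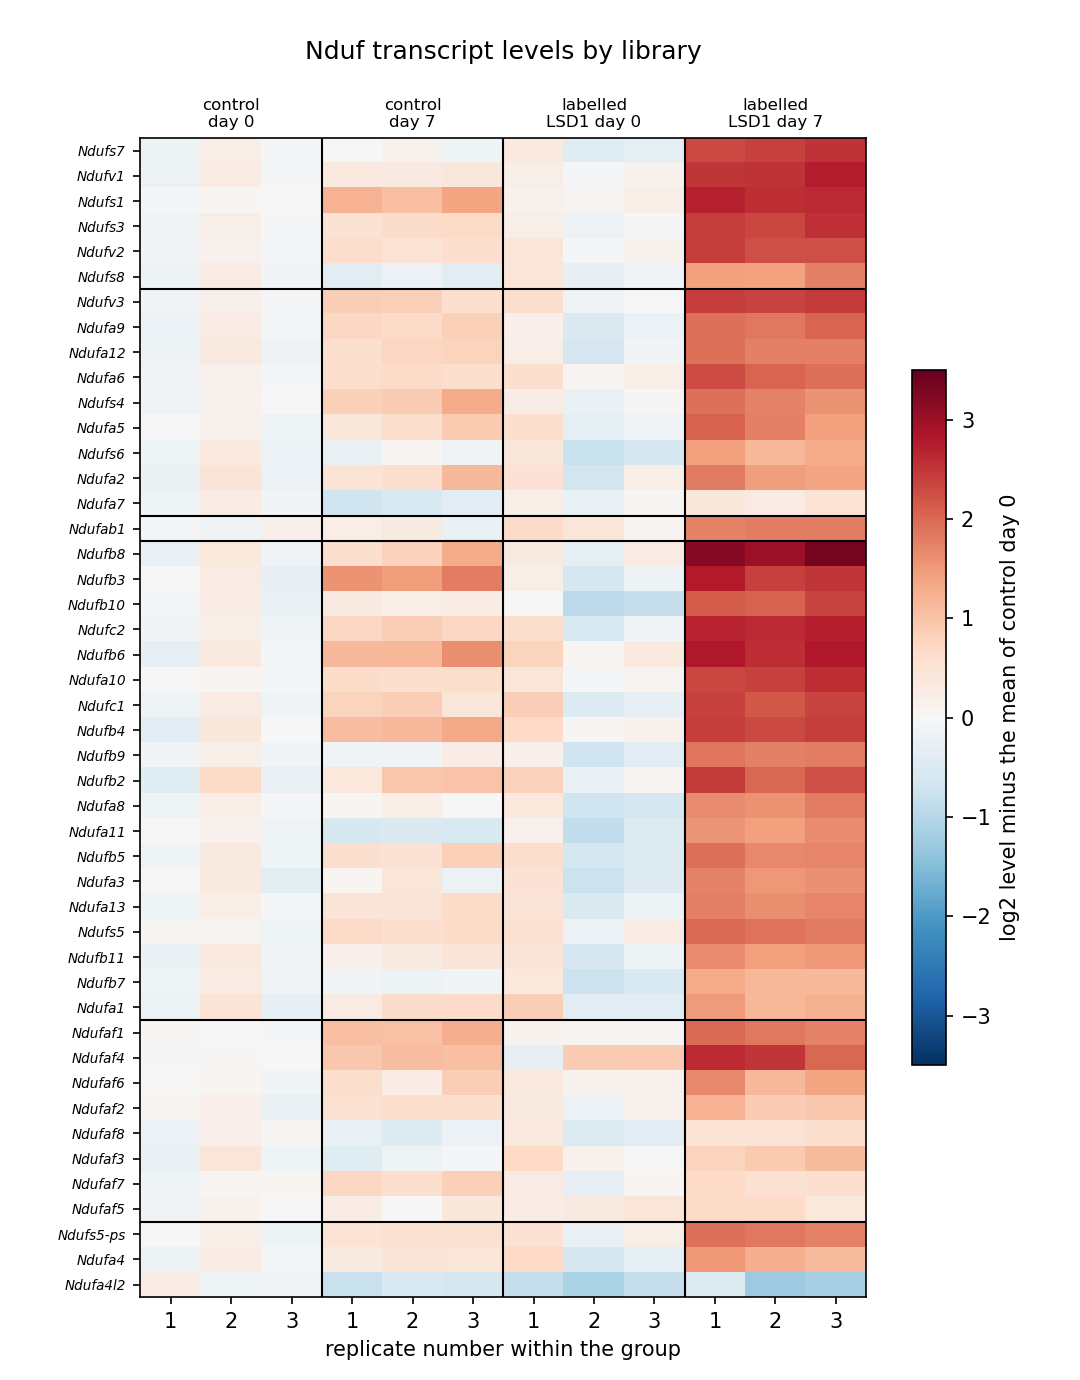
Level of 46 of the 47 Nduf transcripts in each of the 12 libraries, as the log2 level minus the gene's mean in control at day 0 (colour scale from -3.5 to 3.5), with genes grouped by role and sorted by their change in LSD1-labelled cells. The 3 LSD1-labelled libraries at day 7 are red for all but Ndufa4l2, and replicate 1 of the LSD1-labelled group at day 0 is warmer than its 2 partners for most rows.

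The 3 core subunits of the NADH-oxidising module rose in LSD1-labelled cells, and 2 of them also rose in control. Ndufv1, which carries the flavin that takes the electrons from NADH, had 68.3, 95.9 and 75.8 CPM in control at day 0 and 99.8, 98.0 and 105 at day 7, with a log2 difference of 0.34 ± 0.13 (adjusted p = 0.0516), which passed under other settings such as limma voom (adjusted p = 0.042). In LSD1-labelled cells it had 91.5, 75.2 and 86.2 CPM at day 0 and 449, 460 and 536 at day 7, a rise of 2.52 ± 0.14 (adjusted p = 4.17e-09). Every LSD1-labelled library at day 7 thus lay above all other libraries, while the control values at both days came close to each other without overlapping. Ndufv2, an iron-sulphur subunit next to Ndufv1, rose in both labels, from 145, 173 and 150 to 239, 215 and 233 CPM in control (log2 0.55 ± 0.13, adjusted p = 0.00331) and from 208, 147 and 168 to 834, 748 and 746 CPM in LSD1-labelled cells (2.15 ± 0.13, adjusted p = 1.23e-08). Its rise in control did not pass after the correction for GC content (0.24, adjusted p = 0.284). Ndufs1, the largest subunit of the complex, had the largest rise of the core subunits described here in control, from 53.5, 59.1 and 57.0 to 133, 118 and 148 CPM (1.24 ± 0.10, adjusted p = 9.55e-07). In LSD1-labelled cells its counts went from 63.2, 60.6 and 66.2 to 368, 342 and 345 CPM (2.47 ± 0.11, adjusted p = 4.27e-10). Its 3 day 0 replicates lay close together in both labels, the labelled library that stood apart included.

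Of core subunits in the ubiquinone-reducing module, Ndufs3 rose in control and Ndufs7 and Ndufs8 did not pass, whereas these 3 rose in LSD1-labelled cells. Ndufs7, which holds the last iron-sulphur cluster before ubiquinone, had 76.8, 101 and 83.3 CPM in control at day 0 and 88.2, 94.7 and 78.0 at day 7, a log2 difference of 0.00 ± 0.18 (adjusted p = 0.988). Those ranges overlapped. In LSD1-labelled cells it stood at 109, 63.8 and 68.9 CPM at day 0 and at 427, 460 and 503 at day 7, a rise of 2.52 ± 0.19 (adjusted p = 9.42e-08). Ndufs8, another iron-sulphur subunit, had 60.9, 84.9 and 64.8 CPM in control at day 0 and 53.9, 59.7 and 54.1 at day 7 (log2 -0.33 ± 0.18, adjusted p = 0.154), and rose in LSD1-labelled cells from 92.7, 57.1 and 65.5 to 187, 186 and 238 CPM (1.51 ± 0.18, adjusted p = 8.57e-06). Ndufs3, a scaffold of this module, rose from 27.8, 35.6 and 29.0 to 43.8, 47.9 and 49.8 CPM in control (0.62 ± 0.13, adjusted p = 0.0022) and reached 167, 158 and 183 CPM in LSD1-labelled cells at day 7 (2.47 ± 0.14 over day 0, adjusted p = 5.18e-09).

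**Figure D2:**
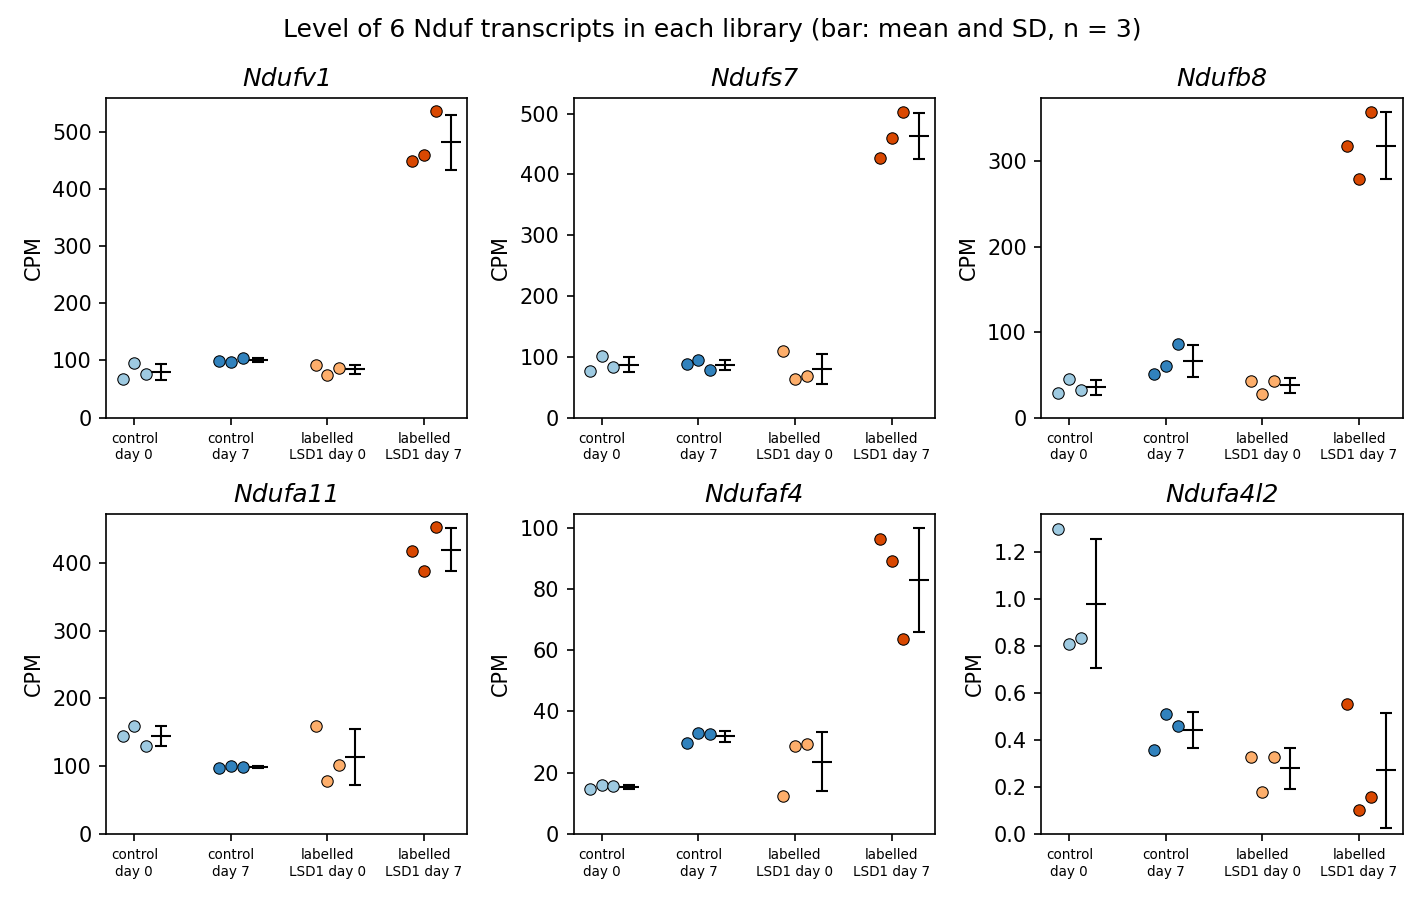
CPM of Ndufv1, Ndufs7, Ndufb8, Ndufa11, Ndufaf4 and Ndufa4l2 in each library (points), with the mean and SD of the 3 replicates of each group (bars), on linear axes that start at 0. LSD1-labelled cells at day 7 lie far above the other groups in all panels but that of Ndufa4l2, whose values are at most 1.29 CPM.

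The 9 accessory subunits of the matrix arm gave 7 rises, 1 fall and 1 member that did not pass in control, and 9 rises in LSD1-labelled cells. Their median log2 difference was 0.69 in control and 1.74 in LSD1-labelled cells. The fall was that of Ndufa7, from 116, 155 and 120 CPM at day 0 to 79.9, 88.9 and 100 at day 7 (log2 -0.54 ± 0.15, adjusted p = 0.0087), with no overlap of the replicates. In LSD1-labelled cells Ndufa7 went the other way, from 152, 110 and 134 to 170, 157 and 182 CPM (0.36 ± 0.15, adjusted p = 0.0419). That rise was the smallest of the 45 and passed the test narrowly, and it did not pass with only the 2 groups in the fit (0.35, adjusted p = 0.0816), with scaling by library totals (0.12, adjusted p = 0.445) or without LSD1-labelled replicate 2 at day 0 (0.25, adjusted p = 0.16). The interaction of Ndufa7 was 0.90 ± 0.21 (adjusted p = 0.00284). Ndufs4, a small subunit beside the NADH module, had the largest rise of these 9 in control, from 26.9, 33.3 and 29.4 to 53.0, 55.7 and 74.1 CPM (1.03 ± 0.17, adjusted p = 0.000252).

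In the membrane arm, 8 of 19 accessory subunits rose in control, 1 fell and 10 did not pass, and all 19 rose in LSD1-labelled cells, with medians of 0.61 and 2.02. The largest rise of any member belonged to Ndufb8, whose counts went from 43.1, 27.7 and 42.3 CPM to 318, 280 and 358 in LSD1-labelled cells, a log2 difference of 3.08 ± 0.24 (8.45-fold, adjusted p = 1.23e-07). In control the same gene had 28.9, 44.8 and 32.0 CPM at day 0 and 51.3, 60.9 and 86.7 at day 7 (0.91 ± 0.23, adjusted p = 0.00525). Ndufb3 had the largest rise in control, from 19.8, 24.3 and 16.3 to 60.5, 55.6 and 69.3 CPM (1.62 ± 0.21, adjusted p = 4.09e-05), and rose by 2.73 ± 0.21 in LSD1-labelled cells (adjusted p = 1.25e-07). Ndufb6 followed in control with 1.34 ± 0.21 (adjusted p = 0.000237). Ndufb10 showed a contrast like that of Ndufs7: 121, 150 and 108 CPM in control at day 0 against 157, 147 and 149 at day 7 (0.26 ± 0.21, adjusted p = 0.337), and 126, 66.1 and 70.8 against 546, 522 and 648 CPM in LSD1-labelled cells (2.71 ± 0.23, adjusted p = 2.17e-07).

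Ndufa11, an accessory subunit of the membrane arm that helps to hold the complex together, was the other member with opposite calls. It fell in control from 144, 159 and 129 CPM to 97.0, 100 and 98.6 (log2 -0.55 ± 0.20, adjusted p = 0.0351) and rose in LSD1-labelled cells from 160, 78.7 and 102 to 418, 388 and 453 CPM (1.89 ± 0.20, adjusted p = 2.54e-06). The control replicates of the 2 days did not overlap, and the LSD1-labelled library that stood apart held the highest day 0 value. Its interaction, 2.44 ± 0.28 (adjusted p = 1.48e-05), was among the 3 largest, with those of Ndufs7 (2.53 ± 0.26, adjusted p = 6.04e-06) and Ndufb10 (2.45 ± 0.30, adjusted p = 2.63e-05). The fall in control did not pass after a correction for GC content (-0.27, adjusted p = 0.151) or without single control libraries, where adjusted p was 0.0746 to 0.113 in 5 of 6 cases.

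Ndufab1, the mitochondrial acyl carrier protein that sits in both arms, is also used in fatty acid and lipoic acid synthesis. In control it had 15.3, 14.5 and 18.0 CPM at day 0 and 18.9, 20.0 and 13.6 at day 7 (log2 0.13 ± 0.17, adjusted p = 0.566), and these ranges overlapped. In LSD1-labelled cells it rose from 25.7, 21.5 and 17.0 to 53.7, 56.1 and 56.2 CPM (1.37 ± 0.17, adjusted p = 1.2e-05).

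The 8 assembly factors had a median log2 difference of 0.82 in LSD1-labelled cells against 1.93 for the 36 subunits, a difference between lists that was not tested. 5 of the 8 rose in control, 7 in LSD1-labelled cells, and 3 passed the interaction, against 34 of the 36 subunits. Ndufaf1, which acts early in building the membrane arm, rose in both labels, from 12.4, 11.9 and 11.7 to 25.4, 25.0 and 29.3 CPM in control (1.15 ± 0.12, adjusted p = 5.4e-06) and from 13.1, 12.8 and 12.3 to 48.9, 44.2 and 41.2 CPM in LSD1-labelled cells (1.82 ± 0.12, adjusted p = 1.86e-08). Its interaction passed as well (0.67 ± 0.16, adjusted p = 0.00413). Ndufaf7, a methyltransferase of assembly, rose to about the same level in both labels: 44.5, 40.5 and 48.5 CPM in control at day 7 and 43.7, 38.8 and 40.7 in LSD1-labelled cells. Its interaction was -0.17 ± 0.20 (adjusted p = 0.524), the only one below 0 among the 47 members. Ndufaf5, which hydroxylates Ndufs7, had 11.0 to 19.7 CPM over all 12 libraries and passed in no comparison by this fit. At day 7 its difference between the labels was 0.36 ± 0.15 (adjusted p = 0.0546), which passed by DESeq2 (0.39, adjusted p = 0.02) and with the correction for GC content (0.48, adjusted p = 0.0074).

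Ndufaf4, which works with Ndufaf3 on the ubiquinone module, had 14.7, 16.0 and 15.5 CPM in control at day 0 and 29.8, 33.1 and 32.5 at day 7 (log2 1.05 ± 0.26, adjusted p = 0.00512). In LSD1-labelled cells it rose from 12.5, 28.8 and 29.5 to 96.3, 89.0 and 63.8 CPM (1.81 ± 0.26, adjusted p = 3.8e-05). The replicate that stood apart at day 0 was low here and high for most subunits. Without that library Ndufaf4 was higher in LSD1-labelled than in control cells at day 0 (0.92, adjusted p = 1.32e-05), and with it the difference was 0.62 ± 0.26 (adjusted p = 0.0999). Ndufaf2 and Ndufaf6 rose in both labels, by 0.59 and 0.66 in control and by 0.95 and 1.29 in LSD1-labelled cells (adjusted p = 0.0116, 0.0183, 0.000228 and 8.58e-05). Without control replicate 3 at day 0 the control rises had adjusted p = 0.0608 and 0.0687. Ndufaf3 and Ndufaf8 rose in LSD1-labelled cells only by the calls, by 0.64 ± 0.23 and 0.69 ± 0.22 (adjusted p = 0.0226 and 0.0128), with control values of -0.24 ± 0.23 and -0.34 ± 0.22 (adjusted p = 0.412 and 0.23). Both rises were lost with library totals (adjusted p = 0.106 and 0.0566), that of Ndufaf8 also with only the 2 groups in the fit (0.0562), and both without LSD1-labelled replicate 2 at day 0 (0.0683 and 0.0545) or replicate 3 (0.087 and 0.0531). That of Ndufaf3 was also lost without LSD1-labelled replicate 3 at day 7 (0.0785). Their interactions passed at adjusted p = 0.036 and 0.0143, and with scaling by library totals neither did (adjusted p = 0.192 and 0.0747), nor did that of Ndufaf3 without any 1 of 7 libraries (0.0562 to 0.105).

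Of the 3 members outside these roles, Ndufa4 is now counted as a subunit of complex IV. It rose in LSD1-labelled cells from 306, 127 and 149 to 541, 454 and 408 CPM (log2 1.27 ± 0.26, adjusted p = 0.000838) and had 165, 224 and 177 against 234, 257 and 252 CPM in control (0.39 ± 0.26, adjusted p = 0.235). Ndufa4l2, known as a hypoxia-induced paralog, was close to the limit of detection, with 74, 30, 22 and 15 counts in all over the 3 libraries of control at day 0, control at day 7, LSD1-labelled at day 0 and LSD1-labelled at day 7. It was lower in LSD1-labelled cells at day 0, at 0.328, 0.179 and 0.329 CPM against 1.29, 0.805 and 0.833 in control (-1.80 ± 0.50, adjusted p = 0.0196), with no overlap. This call did not pass without control replicate 1 (-1.55, adjusted p = 0.0844) or without LSD1-labelled replicate 2 (-1.56, adjusted p = 0.0769). Ndufs5-ps rose from 27.0, 31.4 and 24.0 to 38.5, 39.4 and 39.5 CPM in control (0.51 ± 0.16, adjusted p = 0.0212) and to 105, 99.0 and 92.1 CPM in LSD1-labelled cells at day 7 (1.65 ± 0.17, adjusted p = 1.37e-06). Its sequence is a near copy of Ndufs5 (99.6% identity over 99% of the transcript), so reads of the 2 cannot be told apart with certainty.

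**Figure D3:**
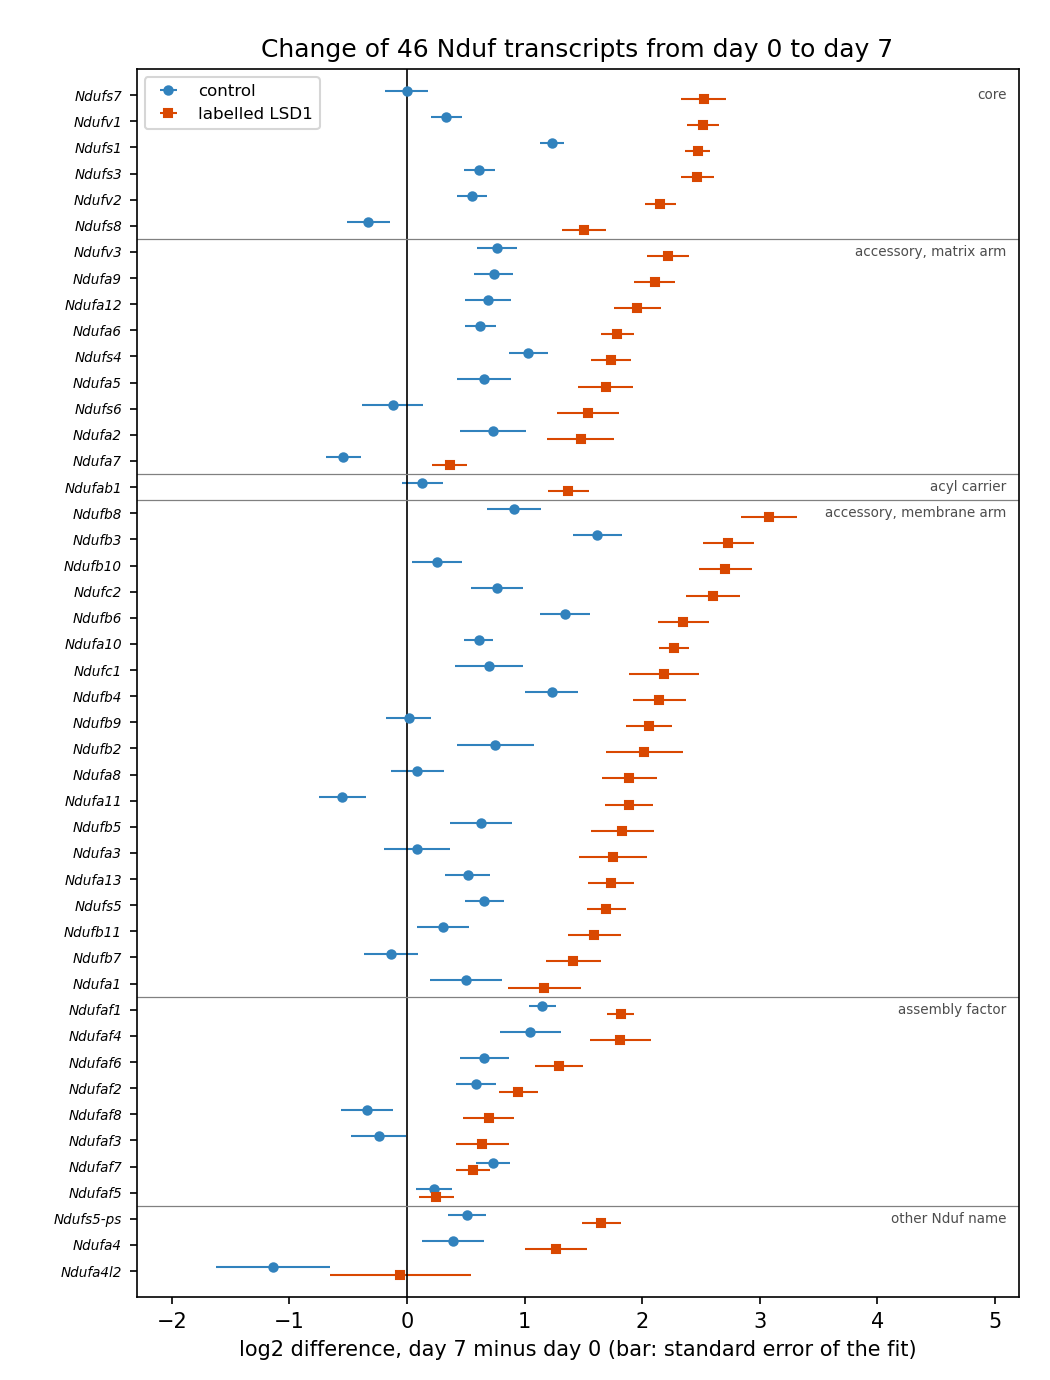
Log2 difference between day 7 and day 0 for 46 of the 47 Nduf genes in control (circles) and LSD1-labelled cells (squares), with the SE of the fit as bars and genes grouped by role. The squares lie to the right of the circles for all genes but Ndufaf7, and the 2 symbols nearly meet for Ndufaf5.

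Ndufs7, Ndufb8 and Ndufv1 had the 3 largest differences between the labels at day 7. Ndufs7 was 5.33-fold higher in LSD1-labelled cells (log2 2.42 ± 0.19, adjusted p = 2.62e-07), Ndufb8 4.81-fold (2.27 ± 0.23, adjusted p = 2.72e-06) and Ndufv1 4.77-fold (2.25 ± 0.14, adjusted p = 2.52e-08). The 36 subunits were all higher, with differences of 0.73 to 2.42 on the log2 scale and a median of 1.46. For Ndufa1, a small subunit of the membrane arm (0.78 ± 0.31, adjusted p = 0.0393), the call was lost with upper quartile scaling (0.64, adjusted p = 0.0868), library totals (0.53, adjusted p = 0.124) and no filter on low counts (0.74, adjusted p = 0.0639), and without any 1 of the 6 day 7 libraries (0.058 to 0.125). The call of the assembly factor Ndufaf2 (0.45 ± 0.17, adjusted p = 0.0317) was lost with library totals (0.20, adjusted p = 0.29) and without 4 of the day 7 libraries (0.0665 to 0.129). The 3 members that did not pass were Ndufaf5, Ndufaf7 and Ndufa4l2. On a scale that corrects for transcript length (RPKM, the CPM divided by the transcript length in kilobases), Ndufa4, Ndufb10 and Ndufb9 had the highest mean levels in LSD1-labelled cells at day 7, at 940.2, 845 and 726. Ndufa4 also led in control at day 7 with 498. The lowest levels in LSD1-labelled cells were those of Ndufa4l2, Ndufaf5 and Ndufaf6, at 0.281, 6.70 and 10.9 RPKM, and the 8 assembly factors were at 44.0 RPKM or below while 35 of the 36 subunits were at 55.9 or above, Ndufab1 being the exception with 27.3.

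Of 12 further genes for complex I assembly and stability without an Nduf symbol, 11 were tested. In control 7 rose and none fell, with a median log2 difference of 0.70. In LSD1-labelled cells 9 rose and Tmem126a fell (-0.51 ± 0.16, adjusted p = 0.0106), and the median was 1.00, where that of the 47 members was 1.79. At day 7, 7 of 11 were higher in LSD1-labelled cells, and 4 passed the interaction. The medians of the 11 were 0.61 at day 7 and 0.22 for the interaction, where those of the 47 members were 1.34 and 1.22. Ecsit, an assembly factor that binds Ndufaf1, followed the pattern of Ndufs7, with 27.2, 28.8 and 27.6 CPM in control at day 0 and 27.8, 28.0 and 26.9 at day 7, and a rise from 26.6, 21.7 and 21.9 to 73.2, 77.2 and 84.2 CPM in LSD1-labelled cells (1.74 ± 0.11, adjusted p = 1.81e-08). Foxred1, a flavoprotein of assembly, rose by 0.70 ± 0.12 in control (adjusted p = 0.000306) and by 2.17 ± 0.12 in LSD1-labelled cells (adjusted p = 3.62e-09). Tmem70 and Tmem186 rose by similar amounts in both labels, by 1.51 and 0.95 in control and by 1.56 and 0.92 in LSD1-labelled cells, with interactions of 0.05 ± 0.23 and -0.03 ± 0.18 (adjusted p = 0.86 and 0.913). Tmem126a was the only one called at day 0, where it was higher in LSD1-labelled cells (0.98 ± 0.16, adjusted p = 0.000744).

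Values at day 0 turned on 1 library. Relative to the control mean at day 0, the members' median log2 level was 0.40 in replicate 1 of the LSD1-labelled group, -0.28 in replicate 2 and 0.00 in replicate 3, while that of all genes stayed between -0.02 and 0.03. With all 3, no member was higher and 1 was lower. Without replicate 1, 2 were higher and 17 lower in LSD1-labelled cells, and the median went from 0.07 to -0.17. Calls over all genes grew too, from 1710 higher and 1739 lower of 13356 to 3058 and 3507 of 13510. Ndufa11 (-0.68, adjusted p = 5.37e-05) and Ndufs7 (-0.39, adjusted p = 0.00843) were then among the lower members, and Ndufa4 turned from 0.04 to -0.45 (adjusted p = 0.00619). The comparison of the labels at day 7 does not hold that library, so leaving it out changes only the filter, the scaling and the shared spread there. Without it 45 members were higher at day 7, as were 4778 of 13510 genes, with 5175 lower. In LSD1-labelled cells 45 members then rose with a median of 2.01, and 43 passed the interaction. Over all genes 4934 rose and 5354 fell in LSD1-labelled cells. For the interaction 4190 genes were above 0 and 4556 below. Leaving that library out also moved the control comparison, to 31 rises and 4 falls, while the members' median stayed at 0.59. Calls over all genes in control went from 3168 higher and 3279 lower of 13356 to 4191 and 4341 of 13510. Control replicate 3 at day 0 moved the control comparison the other way, to 18 rises and 2 falls without it. Over all genes 2540 of 13588 were then higher and 2709 lower.

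**Figure D4:**
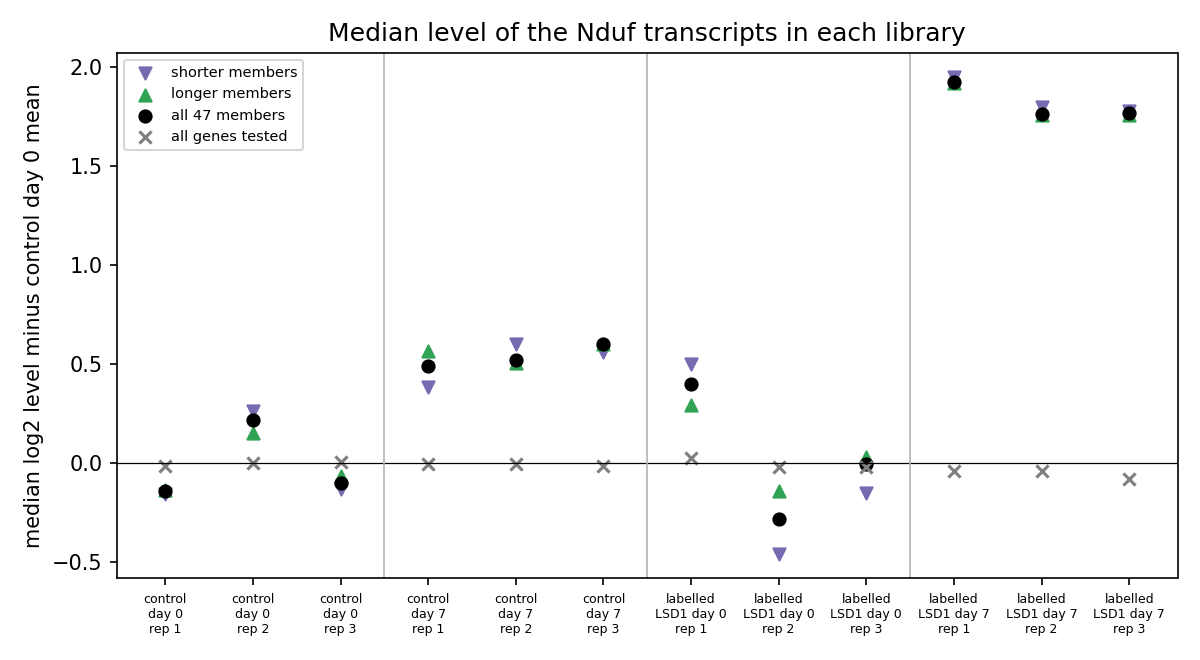
Median log2 level of all 47 Nduf transcripts (circles), of the 24 shorter and the 23 longer ones (triangles) and of all genes tested (crosses) in each library, relative to the mean of control at day 0. The LSD1-labelled libraries at day 7 lie between 1.76 and 1.93, and the 3 LSD1-labelled libraries at day 0 spread from -0.28 to 0.40, more for the shorter members than for the longer.

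The members share short transcripts. Their median length was 845 bases (351 to 3632), at the 5.3rd percentile of all genes tested, whose median was 2876. Day 0 spread differed with length: the 24 shorter members had medians of 0.50, -0.46 and -0.15 in the 3 LSD1-labelled libraries and the 23 longer ones 0.30, -0.14 and 0.03. Over all genes, deviations of those libraries from their group mean correlated with length at Spearman's rho = -0.40, 0.48 and 0.22, and with GC content at 0.35, -0.31 and -0.32. The change over differentiation was alike in shorter and longer members, at 0.55 and 0.61 in control and 1.77 and 1.81 in LSD1-labelled cells. Over all genes its rho with length was -0.05 in control and -0.13 in LSD1-labelled cells. For the difference between the labels at day 7 that rho was -0.19, and for the interaction -0.13. Within the 47, the change in control was lower for transcripts richer in G and C (Spearman's rho = -0.65 over 47 genes, -0.31 over all genes), while rho was -0.06 for that in LSD1-labelled cells. For the difference between the labels at day 7 rho was 0.35, and for the interaction 0.50 (0.14 and 0.13 over all genes). These genes share libraries and are not independent replicates. With a per-library correction for GC content, 25 members rose and 1 fell in control, 45 rose in LSD1-labelled cells and 39 passed the interaction. Of 13356 genes, 2978 rose and 3276 fell in control with that correction. In LSD1-labelled cells 4783 genes rose, and 3792 had an interaction above 0. A like correction for transcript length, chosen after seeing the data, lowered the members' distance from the median of all genes. It went from 0.59 to 0.55 in control and from 1.86 to 1.61 in LSD1-labelled cells. Between the labels at day 7 it went from 1.39 to 1.06, and in the interaction from 1.28 to 1.08. Scaling by library totals shifted the median of all genes by 0.15 in control, by -0.24 in LSD1-labelled cells and by -0.40 in the interaction. Such a scaling moves all genes alike, so the members' distance from that median (0.59, 1.86 and 1.28) is fixed by construction. The members lie on 17 chromosomes. 6 overlap an exon of a gene on the other strand (Ndufa1, Ndufa13, Ndufa2, Ndufa4l2, Ndufb11 and Ndufs1), and the strand setting of the counting is not given in the sources used here, so their reads and those of the partner cannot be told apart. Ndufb11, Ndufb3, Ndufb4, Ndufs3, Ndufs5 and Ndufs6 have a copy elsewhere in the genome with at least 95% identity over at least 50% of the transcript, and their counts are uncertain to that extent. The sum over the transcripts of Ndufs1, Ndufs6 and Ndufv3, which have several, could count shared reads more than once, so each gene was represented by its highest transcript. For Ndufv3, a subunit of the NADH module with a short and a long form, the long transcript of 1580 bases had 17687, 18166 and 19469 counts in LSD1-labelled cells at day 7 and the short one of 488 bases 13303, 13262 and 14376. The 2 transcripts share reads and are no independent measures.

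LSD1 peaks, called by the authors, lay within 1 kb of a start site in 7 of 47 members in control at day 0, where 23% of all genes had one. The members were Ndufv1, Ndufs3, Ndufs7, Ndufaf3, Ndufa13, Ndufb2 and Ndufa11. In control at day 7, 31 members (66%) had an LSD1 promoter peak against 59.8% of all genes. In LSD1-labelled cells the counts were 41 members (87.2%) at day 0 against 71.4% and 45 members (95.7%) at day 7 against 80.9%. Each list comes from 1 sample of unknown depth, so these shares carry no test, and a difference between lists and one in how deeply they were sequenced cannot be told apart. The 2 members with no peak in LSD1-labelled cells at day 7 were Ndufa4l2 and Ndufs5-ps, and Ndufs5-ps had no peak in any list. Ndufa1, Ndufaf2 and Ndufaf6 had a peak in the list of LSD1-labelled cells at day 7 alone, and Ndufa4l2 one in LSD1-labelled cells at day 0 alone. A peak in exactly 1 list was found for 8.5% of members and 8.56% of all genes. Ndufa11, Ndufa13, Ndufaf3, Ndufb2 and Ndufs3 had an LSD1 peak in all 4 LSD1 lists (10.6% of members, 20.2% of all genes). At 19 of the 47 members another gene starts within 1 kb on the other strand, Ndufa11, Ndufa13, Ndufaf3 and Ndufs3 among them. Peaks of any list there cannot be assigned to either gene alone. No member had a peak in all 6 lists, where 2.72% of all genes had one.

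**Figure D5:**
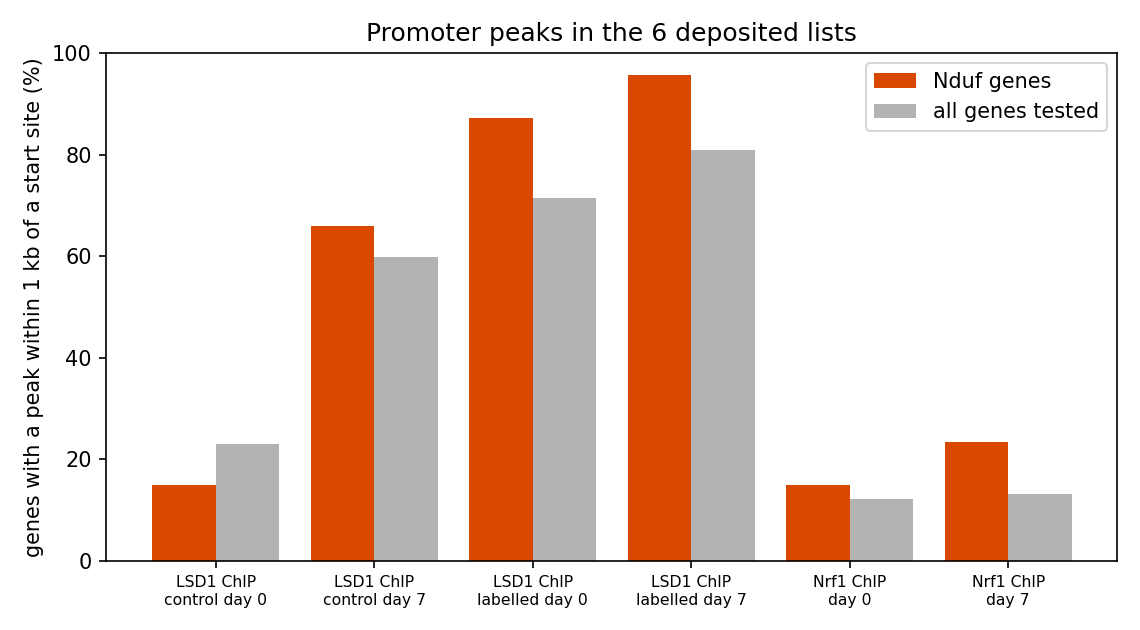
Share of the 47 Nduf genes (orange) and of all 13112 tested genes with a start site (grey) that have a deposited peak within 1 kb of a start site, in each of the 6 lists (1 sample each, in percent). Nduf genes are below all genes in the LSD1 list of control at day 0 and above them in the other 5.

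The peak scores are the authors' own and order peaks within 1 list. In LSD1-labelled cells at day 7 the members' promoter peaks had a median score of 680, where the promoter peaks of all genes had 645 and all peaks of that list 150. At day 0 in that label the members had 163 against 214 for the promoter peaks of all genes. In control the medians were 77.2 against 77.1 at day 0 and 133 against 139 at day 7. The 4 highest member scores in LSD1-labelled cells at day 7 belonged to Ndufb10 (3100), Ndufa7 (2003), Ndufaf3 (1981) and Ndufv2 (1926). The peaks of Ndufb10 and Ndufa7 were broad, 5516 and 3797 bases, and their middles lay outside the 1 kb window, 2320 bases after and 1483 bases before the start site, while those of Ndufaf3 and Ndufv2 lay 86 and 180 bases after it. Ndufb10 also had the highest member score in that label at day 0 (1532), from a peak of 8006 bases whose middle lay 3363 bases after its start site. When the middle of the peak had to lie in the window, 43 members were left at day 7, against 79% of all genes, and 39 at day 0, against 65.2%. Ndufa6, a small subunit of the matrix arm, had the highest member score in control at day 7, 443. With peaks of score 100 or more, none of the 7 members in control at day 0 was left, where the share of all genes went from 23% to 6.29%, and 45 of 45 were left in LSD1-labelled cells at day 7, where 77.55% of all genes had such a peak.

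Nrf1 peaks were found at the promoters of 7 members at day 0 (14.9%), where 12.1% of all genes had one, and of 11 members at day 7 (23.4%), where 13.1% had one. Nrf1 itself had 27.3 to 47.5 CPM over the 12 libraries and fell in control by 0.39 ± 0.14 on the log2 scale (adjusted p = 0.0347), a call that was lost without any 1 of the 6 control libraries (0.056 to 0.0973). In LSD1-labelled cells its difference was -0.31 ± 0.14 (adjusted p = 0.0633), which passed without the day 0 library that stood apart (-0.47, adjusted p = 0.00023). It also passed with library totals (-0.57, adjusted p = 0.00562), which shifted the median of all genes by -0.24. The interaction of Nrf1 did not pass (0.08 ± 0.20, adjusted p = 0.756). With all 12 libraries Nrf1 did not pass between the labels at day 0 or at day 7. Without the day 0 library that stood apart it was higher in LSD1-labelled cells at day 0 (0.35, adjusted p = 0.00669). At day 7 it then passed too (0.27, adjusted p = 0.0138), although that comparison does not hold the library left out. Ndufb10, Ndufa6, Ndufs8 and Ndufb4 had an Nrf1 peak in both lists (8.5% of members, 8.37% of all genes). Ndufs7, Ndufv2 and Ndufs4 had one at day 0 alone (6.4% of members, 3.74% of all genes). Ndufaf4, Ndufs6, Ndufa13, Ndufs5, Ndufa5, Ndufa8 and Ndufb6 had one at day 7 alone (14.9% and 4.78%). All 14 also had an LSD1 peak in at least 1 list, as did 99.6% of all genes with an Nrf1 peak. Within the lists, Ndufb10 had the highest score of the members at both days, 164 and 193, and Ndufaf4 came next at day 7 with 147. The 14 members with an Nrf1 peak changed by a median log2 of 0.59 in control and 1.80 in LSD1-labelled cells, and the 33 without one by 0.59 and 1.75. At day 7 the labels differed by 1.42 in the former and 1.22 in the latter, with overlapping ranges (0.73 to 2.42 and -0.72 to 2.27). With peaks of score 100 or more, 3 members were left at day 0 and 5 at day 7, where 4.99% and 7.31% of all genes had such a peak.

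The promoters below show where the letters known for Nrf1 binding lie in members with and without an Nrf1 peak. They come from RefSeq on GRCm38.p6, the build of the peak files (mm10), and run 5′ to 3′ from 250 bases before to 50 bases after the start site. Capitals mark each match to GCGCATGC or, on the other strand, GCATGCGC; the 2 forms can overlap. Ndufa6 (chr15:82354242-82354541, minus strand) had an Nrf1 peak at both days and a match that begins 83 bases before the start site. Ndufa8 (chr2:36049289-36049588, minus strand) and Ndufaf4 (chr4:24897833-24898132, plus strand) had an Nrf1 peak at day 7, with 1 and 3 matches. Ndufa11 (chr17:56717512-56717811, plus strand), the subunit with opposite calls, had 2 overlapping matches from 60 bases before the start site, an LSD1 peak in all 4 lists and no Nrf1 peak. Ndufb10 (chr17:24724374-24724673, minus strand), the member with the highest Nrf1 scores, had no exact match to these letters in this window. Variants of the letters were not searched.
Ndufa6: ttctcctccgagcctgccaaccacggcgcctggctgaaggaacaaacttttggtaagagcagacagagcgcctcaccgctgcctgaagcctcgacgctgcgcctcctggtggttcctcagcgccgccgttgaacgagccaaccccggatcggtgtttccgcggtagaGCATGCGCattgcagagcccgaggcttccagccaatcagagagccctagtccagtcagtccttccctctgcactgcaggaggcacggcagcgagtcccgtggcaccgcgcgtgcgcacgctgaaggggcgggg
Ndufa8: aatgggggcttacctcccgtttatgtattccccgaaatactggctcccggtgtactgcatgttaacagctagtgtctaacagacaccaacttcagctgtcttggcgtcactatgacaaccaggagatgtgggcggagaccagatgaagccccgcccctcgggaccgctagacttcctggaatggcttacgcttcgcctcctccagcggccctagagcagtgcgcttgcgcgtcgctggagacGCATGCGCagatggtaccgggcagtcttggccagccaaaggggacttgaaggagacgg
Ndufaf4: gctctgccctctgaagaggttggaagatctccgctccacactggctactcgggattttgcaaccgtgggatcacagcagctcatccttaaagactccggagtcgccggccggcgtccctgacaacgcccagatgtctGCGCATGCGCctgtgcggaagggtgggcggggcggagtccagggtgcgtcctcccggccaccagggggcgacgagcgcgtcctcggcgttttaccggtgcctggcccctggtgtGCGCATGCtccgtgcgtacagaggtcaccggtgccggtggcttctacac
Ndufa11: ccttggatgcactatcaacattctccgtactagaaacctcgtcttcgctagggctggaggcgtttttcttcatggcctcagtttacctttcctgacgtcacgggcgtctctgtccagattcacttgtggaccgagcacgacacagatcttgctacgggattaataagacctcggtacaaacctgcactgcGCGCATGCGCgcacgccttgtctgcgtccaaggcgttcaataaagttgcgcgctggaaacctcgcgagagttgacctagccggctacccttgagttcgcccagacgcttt
Ndufb10: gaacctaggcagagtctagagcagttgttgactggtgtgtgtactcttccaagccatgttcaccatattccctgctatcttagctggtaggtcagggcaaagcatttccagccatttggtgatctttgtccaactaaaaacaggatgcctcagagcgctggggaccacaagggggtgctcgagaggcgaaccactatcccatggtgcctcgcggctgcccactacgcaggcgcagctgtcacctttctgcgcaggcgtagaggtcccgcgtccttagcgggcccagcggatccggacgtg

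The Nrf1 letters were found in 5 of the 40 members with an entry in the promoter table (12.5%), Ndufa11, Ndufa6, Ndufa8, Ndufaf4 and Ndufaf5, and in 3.05% of the 27025 genes in it. Of these 5, Ndufa6, Ndufa8 and Ndufaf4 had an Nrf1 peak over the promoter. Under whole peaks, 2 of 7 member peaks at day 0 and 5 of 11 at day 7 held the letters, against 31.2% and 33.5% of all promoter peaks in those lists; besides the 3 just named these were the peaks of Ndufs8 at both days and of Ndufa13 at day 7. Letters known for other factors were searched in the same window on both strands. AAGATGGC, known for YY1, was in 8 of 40 members (20%) and 3.19% of genes, and none of the 8 lay within the 150 bases before the start site. CCGGAAG, known for ETS factors, was in 6 (15%) and 9.93%, AAGGTCA, known for oestrogen-related receptors, in 3 (7.5%) and 5.38%, TGACGTCA, known for CREB, in 3 (7.5%) and 2.03%, and GGGCGG, known for SP1, in 21 (52.5%) and 38.2%. The members' promoters were also richer in CpG dinucleotides, with a median of 20.5 per 300 bases against 7 and a median GC content of 59.3% against 52.7%, and the part of this in the matches was not tested. The shares of letters are over all 27025 genes of the promoter table, which include genes not tested here. The shares of peaks are over the 13112 tested genes with a start site. A match describes the sequence and does not show a binding site. Only exact letters were searched, so a promoter or peak without a match can still hold a variant of them.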

How the data were processed

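The values of the 12 RNA-seq samples are whole-number read counts per RefSeq transcript, as deposited by the authors without column names. The submitters' processing notes name the build mm10 and TopHat2 (version 2), HOMER, edgeR and DESeq 1.8.3, with no role given. The 6 ChIP-seq lists hold 1 peak per line with a score, at least 50, deposited by the authors; MACS 1.41 and Bowtie2 are named in the submitters' processing notes, and the input pairing and depth are not given in the sources used here. The 6 input samples were not used here. Of 30521 transcript rows, 29144 were named from RefSeq and 177 from GENCODE, and 1200 unnamed rows (0.896% of counts) stayed without a symbol. For each gene the transcript with the most counts on average was used.

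All expression tests used edgeR 4.0.16 in R 4.3.3: filterByExpr, scaling by TMM, 1 quasi-likelihood model (robust) with a mean for each of the 4 groups, two-sided tests and Benjamini-Hochberg adjustment over 13356 genes, threshold 0.05. Levels are CPM with TMM-scaled library sizes, and RPKM divides them by transcript length. Counting error is small beside replicate spread except for Ndufa4l2, and 3 replicates limit the precision. Peaks were assigned to a gene with an overlap of at least 1 base within 1 kb of an annotated start site. Copies were searched with blastn 2.17.0. Alternatives covered scaling, DESeq2 1.42.0, limma voom (3.58.1), the low-count filter, sums of transcripts, the 2 groups alone, the replicate block, GC and length offsets, and each library left out.

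The members and lists were chosen with earlier results of these data known. Always named were core subunits, Ndufab1, Ndufa4, Ndufa4l2, Ndufaf1 to Ndufaf8, Kdm1a and Nrf1. Added were, per comparison, the 3 largest rises and falls past the threshold and up to 3 other complex I genes by adjusted p, members called in opposite directions, and members with a promoter peak in all 6 lists or in exactly 1. 1 member is not reported here by name and stays in the counts. Ndufs4, Ndufs5-ps, Ndufv3, Ndufa6, Ndufa8 and the members listed by peak or sequence were named after their values were seen. Marker lists were adipocyte, preadipocyte and fibroblast, macrophage, endothelial and muscle.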

Additional observations from a re-analysis of the deposited data

Results flagged for a closer look

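The change over differentiation differed between the labels for 38 of the 47 members by the interaction test (edgeR, adjusted p below 0.05), each with a value above 0 (a more positive change in LSD1-labelled cells). Among core subunits the interaction was 2.53 on the log2 scale for Ndufs7, 2.18 for Ndufv1, 1.85 for Ndufs3, 1.83 for Ndufs8, 1.60 for Ndufv2 and 1.24 for Ndufs1. Among accessory subunits it was 2.45 for Ndufb10, 2.44 for Ndufa11, 1.24 for Ndufab1 and 0.90 for Ndufa7. The assembly factors Ndufaf8, Ndufaf3 and Ndufaf1 had 1.03, 0.88 and 0.67. Of genes without an Nduf symbol, Ecsit had 1.76, Foxred1 1.47 and Timmdc1 0.78, and Kdm1a had -0.57. Groups of 3 libraries were too small to test single libraries as outliers.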

How the results depend on the processing

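Across the alternatives, 335 of 372 counts and medians kept within 1.5 times the reported count or within 1 SD between replicates, and 37 did not. Of 2963 values of named genes, 2810 kept their side of the threshold, 87 no longer passed and 65 passed newly in the same direction. The remaining 1, Ndufa4 at day 0, passed newly in the other direction. Values that passed in neither fit counted as kept whatever their sign. Ndufa1 at day 0, for 1, ranged from -0.43 to 0.40 with libraries left out. In control, the number of members that fell (2) was 1 with scaling by library totals or a GC offset, 4 with only the 2 groups compared, 5 with a transcript length offset (chosen after seeing the data), and 1 to 4 with single libraries left out, where 18 to 31 rose. The control median was 0.74 with library totals, where 29 members and 4055 of 13356 genes rose. Over all genes 2493 fell with that scaling, 3276 with the GC offset and 3625 with the length offset. With only the 2 groups compared 4150 of 12933 genes fell. At day 0, members higher in LSD1-labelled cells (0) were 1 with upper quartile scaling, DESeq2, no low-count filter or the length offset, 2 with the GC offset and 6 with library totals, and 0 to 2 with libraries left out; members lower (1) were 2 with the GC offset, 3 with the length offset and 0 to 17 with libraries left out, the 17 without LSD1-labelled replicate 1. Calls over all genes also grew without that replicate, to 3058 higher and 3507 lower of 13510. In the reported fit 1710 of 13356 genes were higher at day 0 and 1739 lower. With library totals 2764 were higher, with upper quartile scaling 1909, with DESeq2 1953, with the GC offset 1978 and with the length offset 1885. Without the low-count filter 1665 of 18344 were higher. Lower were 2150 genes with the GC offset and 1953 with the length offset. Ndufa4 at day 0 ranged from -0.45 to 0.27 when libraries were left out. At day 7 the median of 1.34 was 1.19 with upper quartile scaling, 1.09 with library totals and 1.08 with the length offset, and members lower were 1 with library totals (Ndufaf7) and 0 to 1 with libraries left out (Ndufa4l2). Over all genes 5667 of 13356 were lower at day 7 with library totals. For the interaction, library totals gave 29 members above 0, 1 below 0 and a median of 0.83. Of all 13356 genes, 1803 were then above 0 and 5418 below. Scaling moves all genes alike. At day 7 the members' distance from the median of all genes stayed at 1.39 with upper quartile scaling and with library totals. With the length offset that distance was 1.06. The cause of the other shifts was not tested.

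With the replicate block, 23 members rose and 2 fell in control, 44 rose in LSD1-labelled cells, 43 were higher at day 7 and 36 passed the interaction. Of 13356 genes, 2957 rose and 3074 fell in control, and 4255 rose in LSD1-labelled cells. At day 7, 3834 genes were higher, and 3035 had an interaction above 0. The rise of Ndufa7 in LSD1-labelled cells (0.36), the day 7 difference of Ndufa1 (0.76) and the interaction of Ndufaf3 (0.87) no longer passed. Replicate numbers were not shown to pair the samples: deviations of same-numbered samples correlated at -0.35 to 0.222, and 0 of 12 samples correlated best with their own number.

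With peaks of score 100 or more, LSD1 peaks at members in control at day 0 went from 7 to 0 and Nrf1 peaks from 7 to 3 and from 11 to 5, while the shares of all genes went from 23% to 6.29%, from 12.1% to 4.99% and from 13.15% to 7.31%. Within the 150 bases before the start, YY1 letters were in 0 members and those of oestrogen-related receptors in 1. Depth limits Ndufa4l2, with 15 to 74 counts per group, and is unknown for the peak lists.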
